A study of Mus musculus with 15 samples.

Results

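The proteasome is the large protease that degrades ubiquitin-tagged proteins, and 45 of its genes were measured in heart muscle cells of mice exposed to iron ions. The genes were taken by symbol as every Psma, Psmb, Psmc, Psmd, Psme, Psmf or Psmg gene with a number, without the immunoproteasome subunits Psmb8, Psmb9 and Psmb10 and without pseudogenes. They were 45 of the 19937 genes that the array's annotation named singly. Of these, 42 reached the signal filter and were among the 9969 genes tested. The other 3 were Psma8 (an alpha subunit of testis), Psmb11 (the beta subunit of the thymus proteasome) and Psmg3 (an assembly chaperone), whose mean log2 signals were 3.16, 4.81 and 4.20 against a filter of 5.5125.

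The core of the complex, the 20S particle, is a barrel of stacked rings. Alpha subunits (Psma) form the outer rings and gate the entry, and beta subunits (Psmb) form the inner rings, where Psmb5, Psmb6 and Psmb7 carry the active sites that cut the substrate. The 19S cap sits on the gate. Its ATPases (Psmc) unfold the substrate, and its other subunits (most Psmd genes) bind and remove ubiquitin or hold the cap together. Psmd5, Psmd9 and Psmd10 were counted here with the Psmg genes as assembly chaperones, not as cap genes. Other regulators open the same gate without ATP: Psme1 and Psme2 form PA28 alpha-beta, an interferon-inducible ring linked to peptide supply for antigen presentation, Psme3 forms the nuclear PA28 gamma, and Psme4 is PA200. Psmf1 (PI31) binds the core and was described first as an inhibitor. In heart muscle cells, which divide rarely, the proteasome removes damaged and worn contractile proteins.

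RNA came from 15 samples of isolated left ventricular cardiomyocytes, 1 array each. All mice were male C57Bl/6NT (Taconic) animals of 8 to 9 months. They received a whole-body exposure to 0.15 Gy of iron (56Fe) ions at 1 GeV per nucleon (linear energy transfer about 151 keV per µm) or a sham exposure. Iron arrays were from day 1 (n = 3), day 3 (n = 3), day 7 (n = 2), day 14 (n = 2) and day 28 (n = 2), and the 3 sham arrays were from day 1 (n = 2) and day 3 (n = 1). Days 7, 14 and 28 thus had no sham array of their own day here, so time and exposure cannot be told apart for them. Whether each array stands for a mouse of its own is not stated in the labels, so p-values measure the spread between these samples, which may be technical. The suspension could hold some inflammatory or endothelial cells, per the labels.

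Summed signals of a marker list were added on the linear scale and then put on log2, so the brightest genes weigh most. The labelled cell type was checked on 8 cardiomyocyte genes, whose summed signal lay between 15.23 and 15.40 on all arrays. Against sham their median difference was 0.033 on day 3, -0.036 on day 7 (1 of 8 lower by the test) and -0.0057 on day 28, and between late and early iron days it was -0.055 (2 of 8 lower by the test). Markers of other cells moved between groups. On day 3, 8 of 8 fibroblast markers, 6 of 7 macrophage markers and 5 of 7 endothelial markers were lower than in sham, with medians of -1.60, -1.29 and -1.26 log2 units. The medians of these lists were -0.87, -0.87 and -0.57 on day 1, where 0 markers passed the test. On day 14 they were -0.84, -0.49 and -0.63, with 2 of 8 fibroblast markers lower by the test. The summed airway epithelium signal ran from 8.377 to 12.465 within sham. The summed macrophage signal was 9.71 to 10.10 on day 3, 11.05 to 11.52 in sham and 11.59 to 12.22 on day 7. The summed T cell and thymocyte signal was 10.63 to 10.78 on day 28 and 7.39 to 9.35 in sham. In RNA of a cell mixture, fewer cells of a type and less RNA per cell cannot be told apart. The part of these cells in the proteasome results was not tested.

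Promoter sequence is shown for 3 members: the PA28 alpha gene Psme1, which rose on day 3, the PA200 gene Psme4, which fell from early to late days, and the catalytic Psmb5, as a core gene with a match to the motif searched. RefSeq promoter windows on GRCm38.p6, from 250 bases before to 50 after each start, matched 37 of the 45 members in 40 windows. Each line gives 120 bases, ending 2 bases past the start, 5′ to 3′ on the gene's strand: Psme1 from chr14:55578376-55578495 (+), Psme4 from chr11:30771657-30771776 (+) and Psmb5 from chr14:54617994-54618113 (-). Capitals mark a match to TGACNNNGC, the core of the antioxidant response element, a motif bound by Nrf factors, which are known to drive proteasome genes.
Psme1: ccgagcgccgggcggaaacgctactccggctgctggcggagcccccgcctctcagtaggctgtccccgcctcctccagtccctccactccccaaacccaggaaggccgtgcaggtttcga
Psme4: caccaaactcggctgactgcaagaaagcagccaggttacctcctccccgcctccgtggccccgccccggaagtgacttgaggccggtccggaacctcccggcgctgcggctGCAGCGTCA
Psmb5: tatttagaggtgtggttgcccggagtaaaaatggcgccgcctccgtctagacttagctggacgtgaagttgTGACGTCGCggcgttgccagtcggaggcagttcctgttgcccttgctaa

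On either strand, TGACNNNGC occurred in 6 of 40 member windows (15%) and in 12.4% of all 32851 windows. The 6 genes were Psmb5, Psmb6, Psmc6, Psmd9, Psmd12 and Psme4. Counted from the start, the match began at position -47 in Psmb5 (forward strand) and at position -7 in Psme4 (reverse strand), and the Psme1 window held none. CCAAT, the letters bound by NF-Y, occurred in 13 of 40 member windows (32.5%) and in 37.4% of all windows. These are matches of letters and say nothing about binding.

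The largest difference of a tested proteasome gene from sham was 0.40 log2 units (Psme1 on day 3), and few differences passed the test. Differences of more than 0.25 log2 units were found in 0, 4, 3, 4 and 5 of 42 members on days 1, 3, 7, 14 and 28, against 14.5%, 28.6%, 29.5%, 23.7% and 25.9% of all genes. The members were brighter, with a median mean log2 signal of 8.39 against 6.98 for all genes tested. These shares were not matched for signal. With limma over all 9969 genes and Benjamini-Hochberg adjustment, 0 of 42 members passed on day 1 (0.0602% of all genes passed), 1 on day 3 (8.03%), 0 on day 7 (4.6%), 0 on day 14 (0.833%) and 0 on day 28 (2%). Over all iron days together, 0 of 42 passed (1.13% of all genes). Between late iron days (7, 14 and 28, 6 arrays) and early iron days (1 and 3, 6 arrays), 5 of 42 passed (22% of all genes), 4 of them lower late. An F test for any difference among the 5 iron days called 2 of 42 (19.2% of all genes). At an unadjusted p under 0.05 there were 1, 6, 5, 2 and 8 members on days 1, 3, 7, 14 and 28, 6 over all iron days and 13 between late and early days. The corresponding shares of all genes were 11%, 27.2%, 24%, 15.4%, 19.3%, 15.9% and 36%. At the adjusted threshold, a smaller share of members than of all genes passed on days 3 and 7. The same held between late and early days and in the F test. On days 1, 14 and 28 and over all iron days, 1 of 42 members (2.38%) would have exceeded the share of all genes. The counts of 0 say little there.

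**Figure D1:**
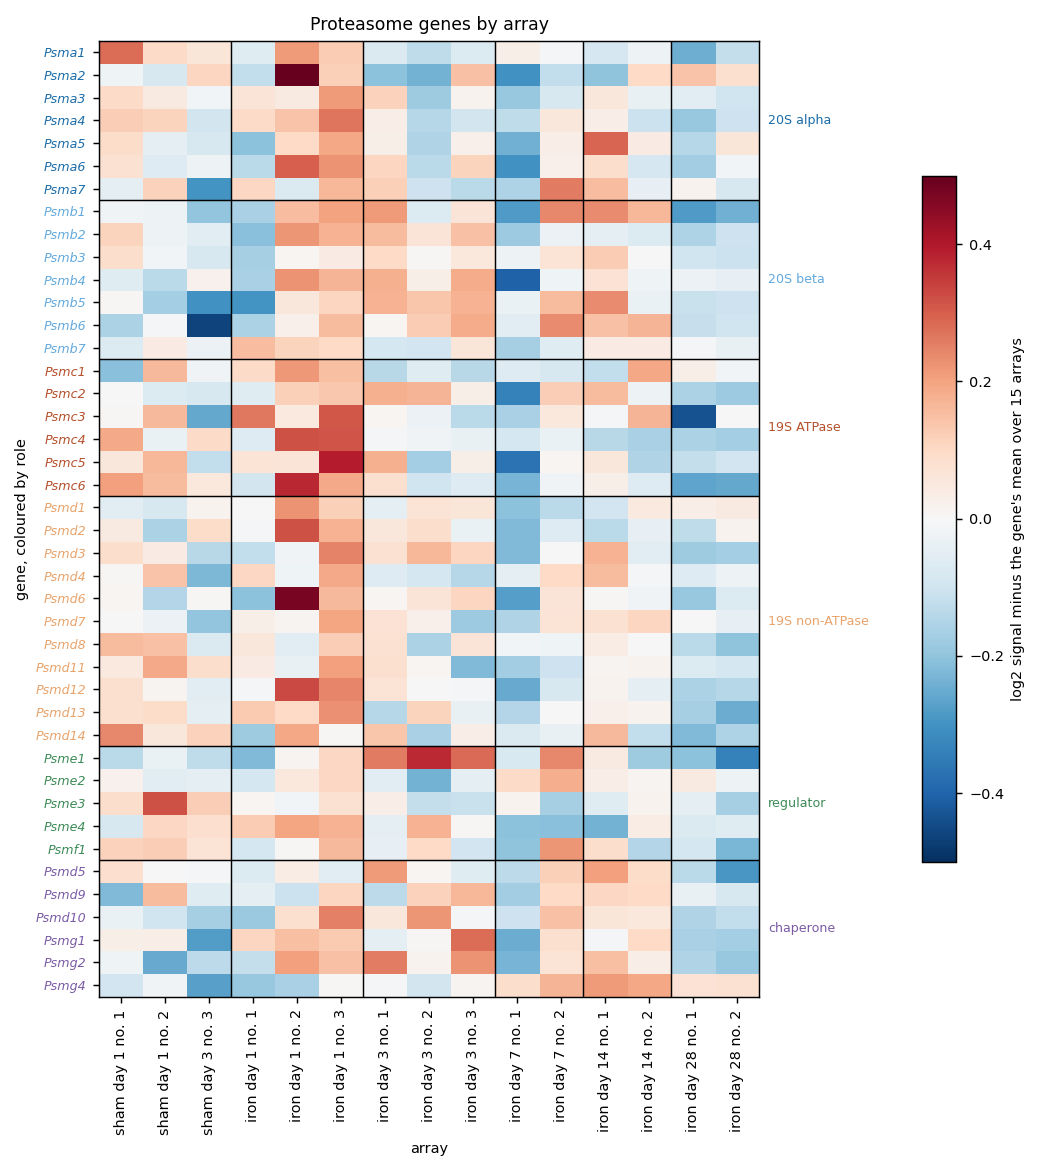
Each row is 1 of the 42 tested proteasome genes, grouped by role, and each column 1 of 15 arrays; colour is the log2 signal minus that gene's mean over the 15 arrays, and the scale is cut at 0.5 in each direction. Iron day 1 array 3 is mostly red (41 of 42 genes above their own mean), and iron day 7 array 1 and both iron day 28 arrays are mostly blue (4, 7 and 6 of 42 above).

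On some arrays most of the genes lay on the same side of their own mean. On iron day 1, array 3 had 41 of 42 members above their own mean over the 15 arrays, array 2 had 34 and array 1 had 15. On iron day 3 the numbers were 28, 21 and 24, and on iron day 14 they were 31 and 21. The day 7 arrays stood far apart, with 4 and 25 members above. Both day 28 arrays were low, with 7 and 6 members above. The sham arrays had 28 and 21 on day 1 and 13 on day 3. Arrays of the same group thus differed widely on days 1 and 7, while both day 28 arrays were alike. The members did not all move together: the median correlation over 861 pairs of members was 0.352 across the 15 arrays. Both genes of a pair were read on the same arrays with the same scaling, and no such value was computed for all genes. Psmg4 had a median correlation of -0.12 with the other 41 members. On iron day 3 array 2, 0 of 7 alpha but 5 of 7 beta subunits were above their own mean. The median deviation of all 9969 genes lay between -0.063 and 0.036 on these arrays, while that of the 42 members ran from -0.17 (iron day 7 array 1) to 0.17 (iron day 1 array 3).

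**Figure D2:**
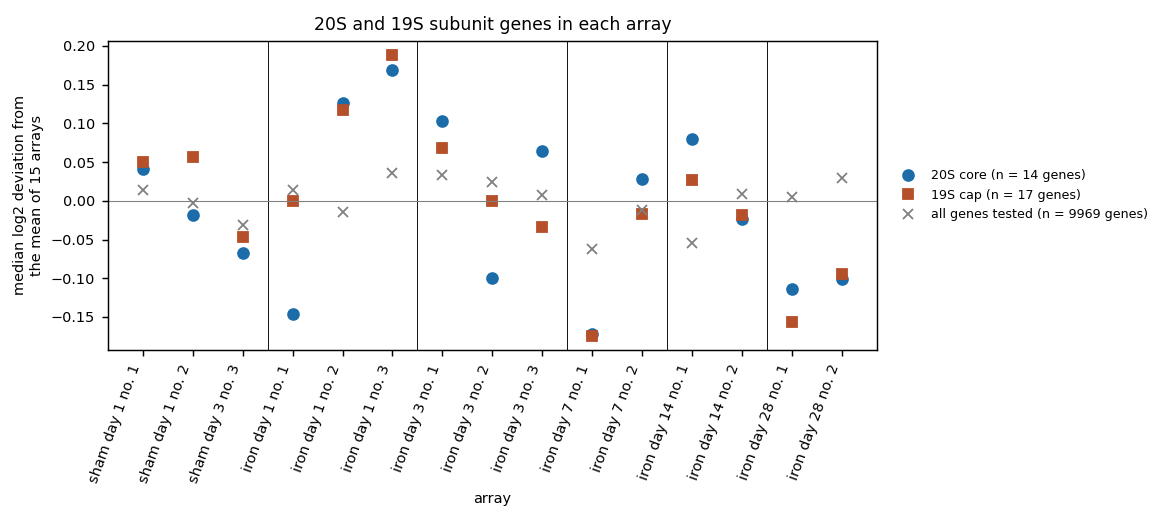
For each array (horizontal axis, grouped by vertical lines), the median over genes of the log2 deviation from each gene's mean of 15 arrays is plotted for 14 genes of the 20S core, 17 of the 19S cap and all 9969 genes tested. Core and cap are highest on iron day 1 array 3 (0.17 and 0.19) and lowest on iron day 7 array 1 (both -0.17), and the 2 differ most on iron day 1 array 1, where the core is at -0.15 and the cap at 0.00.

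On day 1, 34 of 42 members lay above sham, with a median difference of 0.11 log2 units, against 58.4% of all genes and a median of 0.028. The core (12 of 14 above, median 0.13) and the cap (14 of 17 above, median 0.12) were alike. Without iron day 1 array 1 the median of the members was 0.16, and without the sham day 3 array it was 0.058. The difference with the smallest p was that of Psmb7, the subunit with trypsin-like activity, which passed no adjusted threshold. Its log2 signal was 10.14, 10.09 and 10.08 on day 1 and 9.91, 10.02 and 9.95 in sham (0.14, SE 0.0636, adjusted p = 0.435 with limma). All day 1 arrays lay above all sham arrays for Psmb7 and 4 other members, 5 of 42 in all (7.59% of all genes did so). Psmd1, a large scaffold subunit of the cap, was next, at 9.42, 9.65 and 9.54 against 9.37, 9.34 and 9.44 (0.15, SE 0.0745, adjusted p = 0.480 with limma), and its arrays overlapped.

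On day 3 the medians of the roles had different signs, and differences between roles were not tested. The median difference was -0.058 for the 7 alpha subunits (5 of 7 below sham), 0.15 for the 7 beta subunits (6 of 7 above) and 0.13 for the 6 assembly chaperones (6 of 6 above), and it was -0.086 for the 5 regulators (3 of 5 below). The cap lay near sham, with a median of -0.022 that turned to 0.013 when arrays were centred on their medians and to 0.0075 without sham day 1 array 2. The median of all 42 members was 0.021 (23 of 42 above sham, against 57.1% of all genes), and it turned to -0.020 without the sham day 3 array and to -0.0070 without iron day 3 array 1. None of the core, cap or chaperone genes passed limma's adjusted threshold. An unadjusted p under 0.05 was found for 3 core, 0 cap and 1 chaperone genes, and for 27.2% of all genes. The chaperone was Psmg2, named here after its values were seen, which pairs with Psmg1 to assemble the alpha ring. It was at 8.01, 7.77 and 7.98 on day 3 and at 7.73, 7.50 and 7.62 in sham (0.30, adjusted p = 0.109 with limma), and all day 3 arrays lay above all sham arrays.

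Psme1 was the 1 member that passed on day 3, where 2.79% of all genes passed in the higher direction. Its log2 signal was 9.47, 9.58 and 9.49 on day 3 and 9.07, 9.17 and 9.08 in sham. All day 3 arrays lay above all sham arrays, as for 8 of 42 members and 19.8% of all genes. The difference was 0.40 log2 units (SE 0.104, 95% interval 0.18 to 0.63, adjusted p = 0.0326 with limma). The call was lost without any 1 of the iron day 3 arrays, without sham day 1 array 1 or without the sham day 3 array, with differences of 0.37 to 0.43 and adjusted p from 0.0739 to 0.117. Without iron day 1 array 1, 2 members passed on day 3. Macrophage, fibroblast and endothelial markers were lower on day 3, as given above, and their part in the value of Psme1 was not tested.

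**Figure D3:**
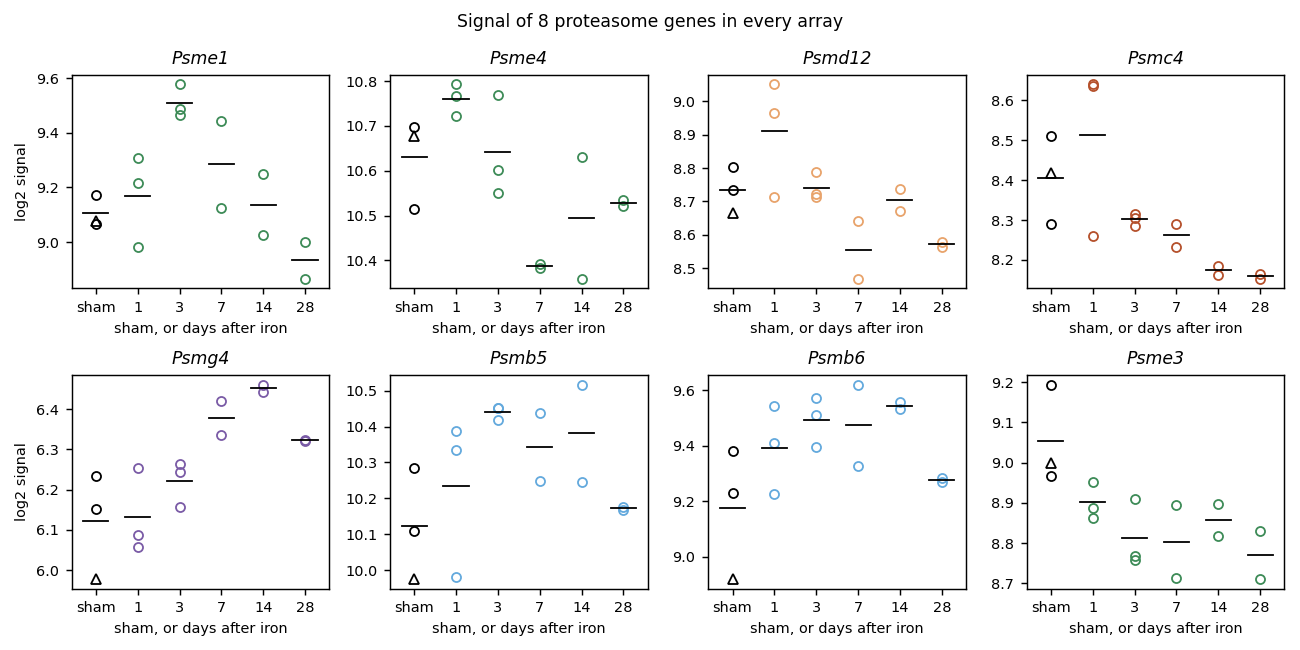
Log2 signal of 8 proteasome genes, with 1 point per array; black points are sham (the triangle is the sham day 3 array), coloured points are iron arrays, placed by day and coloured by role, and bars are group means. Psme1 is highest on day 3 (9.47 to 9.58), Psmg4 is above all early iron arrays on all 6 late ones, and Psme3 is below all sham arrays on all 12 iron arrays; vertical axes differ and start above 0.

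Later values of Psme1 were lower. It stood at 9.13 and 9.44 on day 7, 9.25 and 9.02 on day 14 and 9.00 and 8.87 on day 28, when both arrays were below sham (-0.17, SE 0.116, adjusted p = 0.438 with limma). On day 1 it was at 8.98, 9.22 and 9.31, around the sham values. It differed among the iron days by the F test (adjusted p = 0.0280) and was lower late than early (-0.22, SE 0.0735, adjusted p = 0.0463 with limma). The F call was lost without any 1 iron day 3 array or either iron day 28 array (adjusted p from 0.0576 to 0.109). The late call held in 6 of 25 alternatives, and 1 of 6 late arrays lay below all 6 early ones.

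Psme2, the partner of Psme1 in the PA28 alpha-beta ring, did not follow it. Its log2 signal on day 3 was 7.89, 7.71 and 7.90, against 7.97, 7.89 and 7.90 in sham (-0.086, SE 0.0802, 95% interval -0.26 to 0.086, adjusted p = 0.509 with limma). On day 7 both arrays, at 8.04 and 8.13, were above all sham arrays (0.16, SE 0.0897, adjusted p = 0.287). On the other days it was 7.86, 8.00 and 8.05 (day 1), 7.98 and 7.96 (day 14) and 7.99 and 7.92 (day 28). Whether Psme1 and Psme2 differed in response was not tested.

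Psme3 was below all 3 sham arrays on all 12 iron arrays. Among all genes tested, 0.421% had every iron array below every sham array. Psme3 stood at 8.97 and 9.19 in sham on day 1 and 9.00 on day 3. The iron arrays were at 8.89, 8.86 and 8.95 on day 1, 8.91, 8.76 and 8.77 on day 3, 8.89 and 8.71 on day 7, 8.82 and 8.90 on day 14 and 8.83 and 8.71 on day 28. The highest iron array, at 8.95, lay just under the lowest sham array, at 8.97. Over all iron days the difference was -0.22 log2 units (SE 0.0672, 95% interval -0.37 to -0.080, adjusted p = 0.134 with limma), which did not pass. It ranged from -0.15 on day 1 to -0.28 on day 28, and the F test among iron days gave an adjusted p of 0.714. Over the alternatives tried, the difference over all iron days ran from -0.27 to -0.15 and did not pass in any of 24.

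Psme4 had its lowest values on both day 7 arrays and 1 of the day 14 arrays. It was at 10.72, 10.79 and 10.77 on day 1 and 10.55, 10.77 and 10.60 on day 3, then at 10.39 and 10.38 on day 7, 10.36 and 10.63 on day 14 and 10.52 and 10.53 on day 28. Sham stood at 10.51, 10.70 and 10.68 and overlapped both the early and the late arrays. The late arrays were lower than the early ones by the test (-0.23, SE 0.0566, 95% interval -0.35 to -0.11, adjusted p = 0.0126 with limma), and 5 of 6 late arrays lay below all 6 early ones. This call held in 24 of the 25 alternatives; with quantile normalization the difference was -0.16 and the adjusted p 0.0620. Psme4 also differed among the iron days by the F test (adjusted p = 0.0486), a call that held in 6 of 25 alternatives. Against sham it had the smallest p of the members on day 7 (-0.24, SE 0.0895, adjusted p = 0.125 with limma), which did not pass.

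Psmf1 did not pass the test in any comparison. Its log2 signal was 7.19, 7.20 and 7.15 in sham. It was 6.99, 7.09 and 7.24 on day 1, 7.04, 7.18 and 6.98 on day 3, 6.88 and 7.30 on day 7 and 7.17 and 6.93 on day 14. On day 28 both arrays, at 6.99 and 6.85, were below all sham arrays (-0.26, SE 0.127, adjusted p = 0.285).

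**Figure D4:**
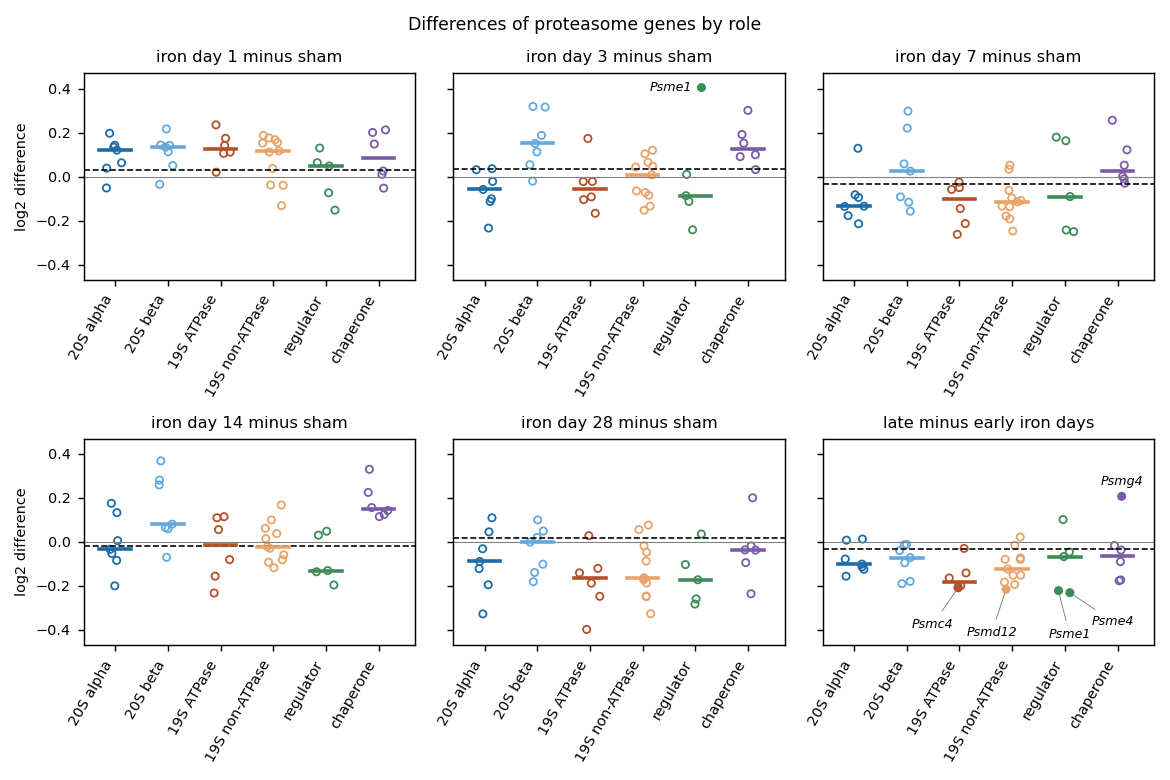
Log2 differences of the 42 tested genes (circles, by role on the horizontal axis) for each iron day against sham and for late against early iron days; short bars are medians of a role, the dashed line is the median of all 9969 genes, and filled circles passed the adjusted threshold of 0.05. Psme1 is the filled circle on day 3 (0.40), and 5 genes are filled between late and early days, of which Psmg4 alone is above 0.

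None of the 3 catalytic subunits passed limma's adjusted threshold in any comparison, and differences between their courses were not tested. Psmb5, with chymotrypsin-like activity, was at 10.28 and 10.11 in sham on day 1 and at 9.98 in the sham day 3 array. On iron day 3 it was at 10.45, 10.42 and 10.45, above all sham arrays (0.32, SE 0.111, 95% interval 0.079 to 0.56, adjusted p = 0.0904 with limma). It was at 9.98, 10.34 and 10.39 on day 1, 10.25 and 10.44 on day 7, 10.52 and 10.25 on day 14 and 10.17 on both day 28 arrays. These overlapped sham.

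Psmb6, with caspase-like activity, was above all sham arrays on days 3 and 14. Sham stood at 9.23 and 9.38 on day 1 and 8.92 on day 3, the widest sham spread of the 3 catalytic genes. The iron arrays were at 9.23, 9.41 and 9.54 on day 1, 9.39, 9.51 and 9.57 on day 3, 9.33 and 9.62 on day 7, 9.53 and 9.56 on day 14 and 9.27 and 9.28 on day 28. The difference was 0.32 on day 3 (SE 0.118, adjusted p = 0.110 with limma) and 0.37 on day 14 (SE 0.132, adjusted p = 0.213 with limma). Neither passed, and over the alternatives the day 14 difference ran from 0.24 to 0.47.

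Psmb7 lay around sham on day 3, at 9.89, 9.89 and 10.04 (-0.020, 95% interval -0.16 to 0.12, adjusted p = 0.863 with limma). It was at 9.82 and 9.92 on day 7, 10.02 on both day 14 arrays and 9.98 and 9.95 on day 28.

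By day 28 most members were below sham. Of the 42, 32 lay below, with a median of -0.10 log2 units, whereas 46.4% of all genes lay below and their median was 0.019. The cap had 14 of 17 genes below (median -0.16), the regulators 4 of 5 (-0.17), the core 9 of 14 (-0.060) and the chaperones 5 of 6 (-0.037). Both day 28 arrays lay below all sham arrays for 19 of 42 members, against 19.4% of all genes, and above them for 2 of 42, against 25.7%. The median of the members kept its sign when any 1 array was left out (-0.14 to -0.091) and under both other scalings (-0.11 with quantile normalization and -0.12 with median centring). No single gene passed limma's adjusted threshold. An unadjusted p under 0.05 was found for 8 of 42 members, against 19.3% of all genes, which is about the same share. On these arrays the T cell and thymocyte signal was high, as given above, and the cardiomyocyte sum was 15.32 on both.

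The members with the smallest p on day 28 were Psma1, an alpha ring subunit, and Psmc6, an ATPase of the cap. Psma1 was at 9.00 and 9.12 on day 28 and at 9.52, 9.34 and 9.30 in sham (-0.33, SE 0.0938, 95% interval -0.53 to -0.13, adjusted p = 0.0906 with limma). It was below all sham arrays on 10 of 12 iron arrays (over all iron days -0.19, SE 0.0666, adjusted p = 0.201 with limma), at 9.17, 9.12 and 9.18 on day 3, 9.27 and 9.24 on day 7 and 9.16 and 9.22 on day 14. The 2 exceptions were on day 1, where it stood at 9.19, 9.46 and 9.37. Psmc6 was at 8.28 and 8.29 on day 28 and at 8.75, 8.71 and 8.60 in sham (-0.40, SE 0.123, 95% interval -0.66 to -0.13, adjusted p = 0.112 with limma). With limma's array weights both passed, with adjusted p of 0.00287 for Psma1 and 0.00266 for Psmc6, and 10 of 42 members passed on day 28, when 24.6% of all genes did.

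Other cap genes are named here after their values were seen. Psmd14, the deubiquitinase of the lid, was at 8.24 and 8.30 on day 28 and at 8.70, 8.52 and 8.57 in sham (-0.33, adjusted p = 0.180 with limma). Its day 28 arrays lay below all sham arrays, as did those of the cap subunits Psmd13, Psmd8 and Psmd11, which differed from sham by -0.25, -0.25 and -0.19 (adjusted p = 0.179, 0.191 and 0.338 with limma). The 3 cap genes above sham on day 28 were Psmd1, Psmd7 and the ATPase Psmc1, by 0.077, 0.056 and 0.029, none of which passed.

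On day 7 the members' median was -0.091, with 29 of 42 below sham (56.5% of all genes were below), and in the cap 15 of 17 were below. Both day 7 arrays lay below all sham arrays for 10 of 42 members (22.5% of all genes) and above them for 2 (15.3%). The members' median rested on 1 array. Without iron day 7 array 1 the median was 0.031 and 24 of 42 were above sham, and without array 2 it was -0.17 and 5 were above. On day 14 the median was 0.043 (25 of 42 above sham, against 45.9% of all genes), both arrays lay above all sham arrays for 7 members (13.7% of all genes) and below them for 5 (17% of all genes). Above sham were 6 of 6 chaperones (median 0.15) and 6 of 7 beta subunits (median 0.081), and below it 4 of 7 alpha subunits (median -0.034), 9 of 17 cap genes (median -0.021) and 3 of 5 regulators (median -0.13).

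From early to late iron days the direction was shared by most members. Late values were lower in 37 of 42, with a median of -0.098 log2 units, against 57.7% of all genes and a median of -0.034. The cap had 16 of 17 genes lower (median -0.15), the core 12 of 14 (-0.086), the chaperones 5 of 6 (-0.063) and the regulators 4 of 5 (-0.067). The members' median kept its sign without any 1 array (-0.13 to -0.080), with quantile normalization (-0.086) and with median centring (-0.11). Among all genes 11.7% passed as lower and 10.3% as higher. All 6 late arrays lay below all 6 early ones for 0 of 42 members (2.57% of all genes). Besides Psme4 and Psme1, the genes that passed were Psmd12, Psmc4 and Psmg4. On the same contrast 6 of 8 fibroblast markers, 6 of 7 macrophage markers and 2 of 7 endothelial markers were higher late. Of 8 T cell and 4 B cell markers listed, only 2 and 1 reached the signal filter. They were higher late, but high late arrays may have brought them past the filter, so their calls are not read as a result. Of the cardiomyocyte markers, 2 of 8 were lower late, with a median over the 8 of -0.055. The part of these cells was not tested.

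Psmd12, a subunit of the lid of the cap, was at 8.71, 9.05 and 8.97 on day 1 and 8.79, 8.72 and 8.71 on day 3. Late arrays were at 8.47 and 8.64 (day 7), 8.74 and 8.67 (day 14) and 8.56 and 8.58 (day 28), and sham at 8.80, 8.73 and 8.67. The late arrays were lower (-0.22, SE 0.0636, adjusted p = 0.0291 with limma), and 5 of 6 lay below all early ones. Psmc4, an ATPase, was at 8.26, 8.64 and 8.64 on day 1 and 8.31, 8.31 and 8.29 on day 3, then at 8.23 and 8.29 on day 7, 8.19 and 8.16 on day 14 and 8.16 and 8.15 on day 28. Its late arrays were lower (-0.21, SE 0.0701, adjusted p = 0.0483 with limma), and the high early values were those of day 1 arrays 2 and 3. Sham was at 8.51, 8.29 and 8.42.

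Psmg4, an assembly chaperone of the alpha ring, went the other way. It was at 6.06, 6.09 and 6.25 on day 1 and 6.24, 6.16 and 6.26 on day 3, and at 6.34 and 6.42 on day 7, 6.46 and 6.44 on day 14 and 6.32 on both day 28 arrays. All 6 late arrays lay above all 6 early ones (1.77% of all genes did so) and above all sham arrays, which were at 6.15, 6.23 and 5.98. The late arrays were higher (0.21, SE 0.0614, 95% interval 0.075 to 0.34, adjusted p = 0.0296 with limma). Against sham it had the smallest p of the members on day 14 (0.33, SE 0.0972, adjusted p = 0.140 with limma). Psmg2 differed the other way between late and early days without passing (-0.18, adjusted p = 0.125).

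The 3 genes next to the threshold between late and early days, named after their values were seen, did not pass. Psmd2, a large scaffold subunit of the cap, differed by -0.19 (adjusted p = 0.0527 with limma), the beta subunit Psmb2 by -0.19 (adjusted p = 0.0664) and Psmc6 by -0.20 (adjusted p = 0.0825). For Psmd2, 5 of 6 late arrays lay below all early ones, for Psmb2 0 and for Psmc6 3.

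Of the 5 calls between late and early days, that of Psme4 held without any 1 array (highest adjusted p = 0.0400 with limma). The others depended on single arrays. Without iron day 1 array 1, in which the core was low, 10 members passed, and without iron day 7 array 2, 7 did. Only 1 passed without iron day 1 array 2, iron day 3 array 1, iron day 3 array 2 or either iron day 28 array. There were 2 without iron day 1 array 3, iron day 7 array 1 or iron day 14 array 2, and 3 without iron day 3 array 3, iron day 14 array 1, sham day 1 array 1 or the sham day 3 array. The sign of all 5 differences held in every alternative. In the F test, 5 members passed without iron day 1 array 1, 0 without any 1 iron day 3 array or either iron day 28 array, and 1 without iron day 1 array 2 or 3, iron day 7 array 1 or any 1 sham array.

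For 5 members the array held more than 1 probe set. The 3 sets of Psma3 disagreed: on day 7 they gave -0.18 (the set used), -0.51 and -0.030, and on day 14 -0.034, 0.13 and 0.24. The second set of Psma5 gave -0.10 on day 14, where the set used gave 0.18. For Psmc1 on day 28 the second set gave -0.058 and the set used 0.029. Between late and early days these 2 sets of Psmc1 gave -0.21 and -0.029. For Psmd2 between late and early days, the set used gave -0.19 and the other set -0.17. None of the genes that passed had more than 1 set. For the 5 members with several sets, whether each set reads the gene itself or a near-identical copy was not checked.

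Other genes of the pathway were given by a list of 36 genes for immunoproteasome subunits, cap partners, assembly and transcription factors, shuttle factors, ubiquitin and muscle ubiquitin ligases, of which 27 were tested. On day 3, 2 of 27 passed, both higher, a share of 7.41% against 8.03% of all genes. Zfand5, which binds and stimulates the proteasome, was at 9.45, 9.21 and 9.13 against 8.79, 8.61 and 8.89 in sham (0.50, SE 0.117, adjusted p = 0.0241 with limma). Fbxo32 (atrogin-1), a ubiquitin ligase of muscle wasting, was at 9.46, 9.20 and 9.18 against 8.62, 8.92 and 8.99 (0.44, SE 0.115, adjusted p = 0.0352 with limma). All day 3 arrays lay above all sham arrays for both genes. Its fellow ligase Trim63 (MuRF1) differed by 0.38 without passing (adjusted p = 0.0734). On days 1, 7, 14 and 28 and over all iron days 0 of 27 passed limma's adjusted threshold, while 1, 5, 5, 4 and 4 had an unadjusted p under 0.05 (11%, 24%, 15.4%, 19.3% and 15.9% of all genes). Between late and early days 3 of 27 passed, Psmb8, Psmb9 and Nploc4, a share of 11.1% against 22% of all genes. This count includes Psmb8, whose call is not read as a result, for the reason given below.

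Of the immunoproteasome subunits, Psmb8 and Psmb9 had higher values late than early. On this contrast 6 of 7 macrophage markers were higher late, with a median of 0.93. The few T cell and B cell markers tested were also higher, with the limit given above. The part of these cells in the values of Psmb8 and Psmb9 was not tested. Psmb8, which replaces Psmb5 in the immunoproteasome, was at 5.21 to 5.58 on the 6 early arrays and at 5.50 to 6.06 on the 6 late ones (a difference of 0.44). Its early mean of 5.40 lay below the signal filter of 5.5125, so it was tested only through its higher arrays and its call is not read as a result. Psmb9, which replaces Psmb6, was higher late by 0.33 (SE 0.0917, adjusted p = 0.0240), and Psmb10, which replaces Psmb7, by 0.095 without passing (adjusted p = 0.628). Psmb5, Psmb6 and Psmb7 differed between late and early days by -0.040, -0.011 and -0.071, with adjusted p of 0.754, 0.942 and 0.274. Nploc4, a cofactor of the segregase Vcp, was lower late (-0.18, SE 0.0444, adjusted p = 0.0144). Nfe2l1, the transcription factor known for proteasome recovery, differed by -0.077 (adjusted p = 0.312).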

How the data were processed

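Gene-level Affymetrix arrays of 15 samples were used as deposited. The deposited values are on a log2 scale after the authors' own normalization (0.234 to 13.01, 0 missing), as the values show. MAS5 is named in the submitters' processing notes, with its version and role not given in the sources used here. Of 34760 probe sets, 21640 had 1 gene symbol in the platform annotation, 1321 several and 11799 none. Each of 19937 genes was represented by its probe set with the highest mean, and the 9969 genes at or above the median signal (5.5125) were tested. The number of arrays limits the precision.

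Genes were fitted with limma 3.58.1 in R 4.3.3: 6 group means, moderated variances with an intensity trend, 9 residual degrees of freedom, and Benjamini-Hochberg adjustment over all 9969 genes at 0.05. Comparisons were each iron day, and all iron days, minus sham, late (7, 14, 28) minus early (1, 3) iron days, and an F test among iron days. The fit was tested on simulated data. Motifs were searched in RefSeq promoters of GRCm38.p6. The members, roles and lists were chosen with earlier results of these data known. Named in every array were the catalytic subunits, the regulators, members that passed and, where none passed, the 2 with the smallest p. Replicate numbers did not settle a pairing. Residual correlations of same-numbered arrays ran from -0.394 to 0.565 (31 pairs, median 0.062, 11 above 0.1). Those of other-numbered arrays ran from -0.565 to 0.49 (50 pairs, median -0.029, 14 above 0.1). Alternatives changed the scaling (quantile normalization or median centring), the signal filter (none, or a stricter one), the trend, the array weights, the choice of probe set (their mean), the block for replicate numbers and the arrays in the fit (only those compared, sham day 1 alone, or each array left out in turn). The proton arm was not analysed here. Python 3.11.15, pandas 2.3.3, numpy 2.4.6 and matplotlib 3.10.9 were also used.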

Additional observations from a re-analysis of the deposited data

Results flagged for a closer look

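Among the proteasome genes, 2 differed between iron days by limma's F test. Psme1 had an adjusted p of 0.028, with its highest values on day 3, and Psme4 had an adjusted p of 0.0486, with its lowest values on both day 7 arrays and 1 of the day 14 arrays. Between late and early iron days, 5 members differed by limma's test. Psme4 was lower late by -0.23 log2 units (5 of 6 late arrays below all early arrays), Psmd12 by -0.22 (5 of 6), Psme1 by -0.22 (1 of 6) and Psmc4 by -0.21 (5 of 6). Psmg4 was higher late by 0.21 (6 of 6 late arrays above all early arrays). Of all genes, 22% passed on this contrast.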

How the results depend on the processing

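In each comparison, members that passed or, where none passed, the 2 with the smallest p were followed over the alternatives. Of 446 such values of differences and F tests, 353 stayed on the same side of the threshold and 91 no longer passed. Many of the 353 belong to results that had not passed to begin with, so they do not measure how well the calls held. All 91 belong to calls, for which the counts kept are given at the end. The F calls held in 19 of 25 alternatives for Psme1 and in 6 for Psme4. Of the differences 0 changed sign, and F tests have no sign. The 2 that newly passed were Psma1 and Psmc6 on day 28, with array weights. With array weights, 3 members passed on day 3, 10 on day 28, 8 between late and early days and 12 in the F test. Between late and early days, where 5 passed, there were 1 with quantile normalization, 2 without the filter, 3 without the trend, 3 with only the arrays compared and 3 with sham day 1 alone. In the F test, where 2 passed, each of these 5 settings left 1. On day 3, where Psme1 passed, 2 passed with only the arrays compared and 0 with sham day 1 alone. With the replicate number as a block and the sham day 3 array left out, 0 passed on day 3, 2 between late and early days and 0 in the F test. Leaving out 1 array at a time gave 0 to 2 on day 3, 1 to 10 between late and early days and 0 to 5 in the F test. The values were log2 already, so the alternative for linear values was not run. Groups of 2 or 3 arrays limit what small differences can pass. Over the alternatives Psme1 on day 3 ran from 0.36 to 0.44 and passed in 18 of 25; late minus early, Psme4 passed in 24 of 25, Psmd12 in 16, Psmg4 in 14 of 24, Psme1 in 6 and Psmc4 in 5.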
